A study of Homo sapiens with 6 samples.

Results

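Genes whose proteins assemble on the promoters of the major histocompatibility complex (MHC) were followed in HEK293T, a kidney-derived human embryonic line in long use that carries the SV40 large T antigen: the class II transactivator CIITA, the 3 subunits of the RFX complex (RFX5, RFXANK and RFXAP), the 3 subunits of NF-Y (NFYA, NFYB and NFYC), CREB1 and the class I transactivator NLRC5. These 9 were chosen by name, as the rows whose Ensembl identifier maps to these symbols in GENCODE release 44, and all 9 of 9 were found among the 63086 genes of the table. The series compared messenger RNA of cells kept without queuine (0Q) and cells given queuine (100Q), with 3 libraries in each group. Queuine is a nutrient base that becomes queuosine in the anticodons of the tRNAs charged with tyrosine, histidine, asparagine or aspartate. Both groups were kept in DMEM with dialyzed fetal bovine serum, dialysis being a way to remove small molecules, and the 100Q cells were depleted cells to which queuine was then added. The dose differs between labels: 100 nM in the sample characteristics, 1 µM for 24 hours in the treatment protocol. Cells were grown in triplicate, but nothing says that the libraries came from separate cultures, and a p-value here measures the spread of these libraries only, which may be technical.

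Class II molecules show peptides to helper T cells, and their genes share a short promoter module of X1, X2 and Y boxes. RFX binds the X1 box, CREB1 the X2 box and NF-Y the CCAAT letters of the Y box. These DNA-binding factors are made in most cell types. CIITA does not bind DNA itself. It docks on the assembled factors and is the switch that is normally confined to antigen-presenting cells or to cells exposed to interferon gamma. NLRC5, a relative of CIITA in the NLR family, uses the same platform at class I promoters.

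The sites that these factors read are shown first, because the levels below concern the proteins that assemble there. Each line holds 58 bases upstream of the start of a class I or class II gene, read from the RefSeq promoter table (GRCh38.p14) on the strand of the gene and aligned on ATTGG, which is CCAAT on the other strand. Capitals mark the aligned ATTGG (the Y box core, NF-Y), GCAAC (the letters searched for X1, RFX) and TGACG (the letters searched for X2, CREB1). Another attgg near the end of the HLA-B line is left in lower case. The first 3 class II lines hold GCAAC. HLA-DQB1 is shown as the class II gene with the most counts in these cells, and the last 3 lines are class I genes that hold TGACG.
HLA-DRB1: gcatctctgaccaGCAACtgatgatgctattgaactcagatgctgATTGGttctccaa
HLA-DRB5: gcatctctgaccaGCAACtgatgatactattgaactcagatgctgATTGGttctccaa
HLA-DOA: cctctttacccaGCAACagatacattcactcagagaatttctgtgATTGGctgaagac
HLA-DQB1: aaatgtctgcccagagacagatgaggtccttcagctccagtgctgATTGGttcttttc
HLA-B: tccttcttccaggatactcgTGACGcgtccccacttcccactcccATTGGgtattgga
HLA-C: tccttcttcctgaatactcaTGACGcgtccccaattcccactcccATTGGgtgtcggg
B2M: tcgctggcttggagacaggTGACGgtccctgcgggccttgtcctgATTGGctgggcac

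These windows lie at chr6:32589882-32589939 (HLA-DRB1, minus strand), chr6:32530365-32530422 (HLA-DRB5, minus strand), chr6:33009646-33009703 (HLA-DOA, minus strand), chr6:32666733-32666790 (HLA-DQB1, minus strand), chr6:31357248-31357305 (HLA-B, minus strand), chr6:31272160-31272217 (HLA-C, minus strand) and chr15:44711423-44711480 (B2M, plus strand). From the first base of GCAAC to the first base of ATTGG there are 32 bases in HLA-DRB1 and HLA-DRB5 and 33 in HLA-DOA. From TGACG to ATTGG there are 25 bases in HLA-B and HLA-C and 26 in B2M. Counted on either strand in the 250 bases upstream of each start, CCAAT stood in 10 of the 11 class II genes found in the promoter table, all but HLA-DPA1, against 32% of 35116 promoters. GCAAC stood in 5 of the 11 against 28.2% of promoters, and TGACG in 4 of the 11 against 21.2%. The spaced pair of GCAAC and ATTGG, 31 to 34 bases apart, stood in 28 of all promoters (0.0797%), among them 3 of the 11 class II genes and 0 of the 8 class I genes in the table. Of the 8 class II windows that could be aligned on ATTGG, the 3 shown first held this pair and 5, HLA-DQB1 among them, did not. The pair of TGACG and ATTGG, 24 to 27 bases apart, stood in 73 (0.208%), among them 3 of the 8 class I genes (HLA-B, HLA-C and B2M) and 0 of the 11 class II genes. Both spacings were chosen after the windows were seen, and matched letters describe sequence only. Of the 9 factor genes, 6 were in the promoter table; CIITA, NFYB and NLRC5 were not, nor was HLA-DRA.

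The libraries held 7264638 to 8035251 estimated counts in 0Q and 4023956 to 11398835 in 100Q. In a principal component analysis, 100Q replicate 2 stood away from the others on the first axis (30.9% of the variance), as did 100Q replicate 1 on the next one (22.7%). All 10 markers listed for HEK293 cells were expressed enough to test, among them VIM, NEFM and NEFL. Their summed level in CPM (counts in each 1000000 counts of a library, after TMM scaling) was 1250 to 1270 in 0Q. In 100Q it was 1080 to 1200. VIM alone had a mean of 757 CPM in 0Q and 710 in 100Q, so it made up most of this sum. The groups did not overlap in the sum. They also did not overlap in 4 of the 10 markers, each lower in 100Q (as in 5.2% of all genes). Of the 10, 0 had an adjusted p under 0.05 and 3 an unadjusted p under 0.05 (edgeR quasi-likelihood test), all lower (2.23% of all genes). Of 11 markers of blood cells that use or meet class II, PTPRC, MS4A1, LYZ and CD3E had 0 counts in all 6 libraries, which allows up to 0.0689 CPM over the libraries (3 counts of the total; counting error only). The summed level of the 11 was 4.19 to 5.94 CPM in 0Q and 0.77 to 6.03 in 100Q. Whether these markers bear on the factor genes was not tested.

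The DNA-binding parts of the platform were all present in HEK293T, and the 2 transactivators were close to the lower limit of what could be tested. Levels between genes were compared per length, as CPM per kilobase of the union of exons, averaged over the 6 libraries. RFX5 came first with 20.1 ± 1.94 CPM per kilobase (SD, n = 6 libraries). RFXANK had 16.0 ± 1.17, RFXAP 9.64 ± 1.51 and NFYA 9.39 ± 0.97. NFYC had 7.38 ± 1.04, NFYB 5.10 ± 0.64 and CREB1 3.45 ± 0.46. A wide step followed: NLRC5 had 0.18 ± 0.056 and CIITA 0.072 ± 0.019. The step from CREB1 to NLRC5 was 19.2-fold, and CIITA lay 277-fold below RFX5. The length divided by was 22553 bases for CIITA and 4555 for RFX5. Neighbours whose ranges over the libraries overlapped were RFXAP and NFYA, and NFYA and NFYC. All other neighbours in the order were apart per length. In CPM not divided by length, CIITA (1.00 to 2.14) and NLRC5 (1.35 to 3.01) overlapped.

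**Figure D1:**
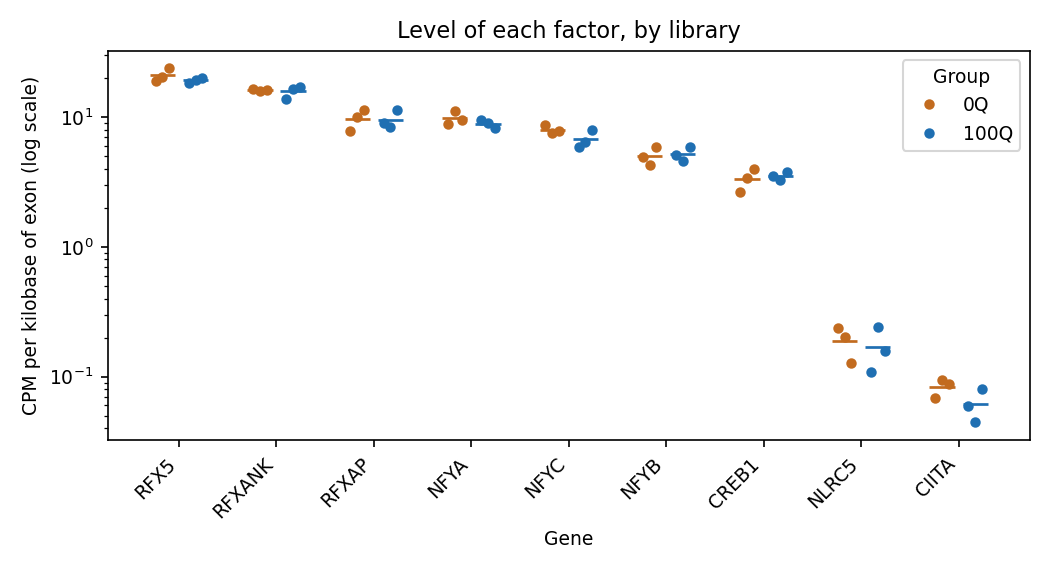
Level of each factor gene in CPM per kilobase of exon (log axis), with 1 point per library and a line at the mean of the 3 libraries of each group. The 7 genes of RFX, NF-Y and CREB1 sit between 2.67 and 23.7, whereas NLRC5 and CIITA sit between 0.0445 and 0.243.

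Among the lengths tried, the order changed in its upper part, and NLRC5 and CIITA stayed last in that order. With the length of the MANE Select transcript, an alternative added after seeing the data, NFYC rose from the fifth to the third place, at 22.6 CPM per kilobase. RFXANK moved to the first place with 29.0, ahead of RFX5 with 25.6. With that length CIITA had 0.10 and NLRC5 0.33, and they remained the lowest of the 9. CREB1 had 4.14, so its step to NLRC5 was 12.6-fold, and CIITA lay 252-fold below RFX5. With the longest transcript the order was the same as with MANE Select. The length of CIITA was 16061 bases under both, and no shorter one was tried, though its longest coding sequence has 1131 codons. The size of the step between RFX5 and CIITA depends on these lengths. Not divided by length, RFX5 had a mean of 91.45 CPM and CIITA 1.635. Values per length assume reads spread along the transcript, which was not tested.

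Against the 14905 genes tested, RFX5 stood at percentile 85 of mean CPM. NFYA was at percentile 73.4, NFYC at 65.2, CREB1 at 63.5 and RFXANK at 62.1. NFYB and RFXAP stood near the middle, at percentiles 48.2 and 45. NLRC5 was at percentile 7.62 and CIITA at 3.58. Over all libraries CIITA had 75 counts and NLRC5 95, against 1001 to 4010 for the other 7 genes.

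The series title names MHC-II expression, and the comparison of supplemented with depleted cells was made for the factors above it. All 9 factors passed the filter on low counts, and 0 of 9 passed the test (edgeR quasi-likelihood test; Benjamini-Hochberg, adjusted over all genes, threshold 0.05), where 0.0134% of all genes tested passed. Those were 2 genes, NEAT1 and ZACN, both higher in 100Q. At an unadjusted p under 0.05 there were 0 of 9 factors, against 4.72% of all genes (2.49% higher and 2.23% lower). DESeq2 and limma-voom also called 0 of 9. In 0 of 9 factors were the 2 groups apart in CPM, against 10.6% of all genes (5.39% higher and 5.2% lower in 100Q). The median log2 fold change (100Q minus 0Q) of the 9 was -0.12, with 6 below 0, beside -0.0027 and 50.6% below 0 over all genes.

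CIITA (ENSG00000179583; chromosome 16, 10866222 to 10943021, plus strand, hg38) was at 1.54, 2.14 and 1.98 CPM in 0Q replicates 1 to 3. In 100Q it was at 1.35, 1.00 and 1.80 CPM. The lowest library was 100Q replicate 2, and the groups overlapped because 100Q replicate 3 exceeded 0Q replicate 1. Behind these values stand rounded counts of 11, 17 and 15 without queuine and 7, 4 and 21 with it. The fold change on the log2 scale was -0.39 ± 0.59 (SE; edgeR quasi-likelihood, Benjamini-Hochberg adjusted p = 0.99). The 95% interval ran from 0.32-fold to 1.83-fold. At this depth neither a 2-fold fall nor a rise of 1.5 times could be told from no difference. The value was -0.66 without 100Q replicate 3 and -0.24 without 100Q replicate 2.

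Reads of CIITA are open to sharing with other genes. DEXI, a protein-coding gene on the opposite strand, lies inside CIITA (chromosome 16, 10928891 to 10942468), and whether reads were counted by strand is not given. DEXI was at 30.4, 31.9 and 30.8 CPM in 0Q and at 36.0, 35.9 and 35.6 CPM in 100Q. All 100Q libraries of DEXI thus lay above those of 0Q, as in 5.39% of all genes, with a log2 fold change of 0.21 ± 0.13 (SE; edgeR quasi-likelihood, Benjamini-Hochberg adjusted p = 0.987). The estimated counts of CIITA had fractions in every library, such as 11.01 in 0Q replicate 1 and 21.45 in 100Q replicate 3, which arise where reads fit more than 1 gene. ENSG00000280153, an annotated transcript of unsettled type, lies inside CIITA on the same strand (chromosome 16, 10933903 to 10936280), with 2, 11 and 11 counts in the depleted libraries and 0, 0 and 6 in the supplemented ones. Counting by strand would not separate it from CIITA. How many CIITA counts came from either gene was not tested.

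NLRC5 (ENSG00000140853; chromosome 16, 56989485 to 57083531, plus strand) was at 2.93, 2.52 and 1.58 CPM in 0Q and at 1.35, 3.01 and 1.97 CPM in 100Q. The highest and the lowest of the 6 libraries were both in 100Q. Its counts were 21, 20 and 12, then 7, 12 and 23. On the log2 scale the fold change was -0.17 ± 0.57 (SE; edgeR quasi-likelihood, Benjamini-Hochberg adjusted p = 0.995), with an interval from 0.38-fold to 2.07-fold. Its sign turned without 0Q replicate 1 (0.020) or 100Q replicate 1 (0.054), and it was -0.47 without 100Q replicate 2.

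The RFX complex recognises the X1 box through RFX5, its DNA-binding subunit, and needs all 3 subunits to act. RFX5 (ENSG00000143390; chromosome 1, 151340640 to 151347326, minus strand) was at 85.8, 92.3 and 108 CPM in 0Q and at 83.2, 88.4 and 90.8 CPM in 100Q. 0Q replicate 3 was the highest library and the groups overlapped. The log2 fold change was -0.12 ± 0.10 (SE), with an interval from 0.79-fold to 1.07-fold, and it was -0.025 without 0Q replicate 3. RFXANK (ENSG00000064490; chromosome 19, 19192229 to 19201869, plus strand), the ankyrin repeat subunit, was at 41.2, 39.5 and 40.3 CPM in 0Q and at 34.5, 41.4 and 42.9 CPM in 100Q. Of the 3 supplemented libraries, 2 stood above all depleted ones, and 100Q replicate 1 stood below them. Its log2 fold change was -0.021 ± 0.13 (SE), from 0.82-fold to 1.19-fold, and 0.066 without 100Q replicate 1. RFXAP (ENSG00000133111; chromosome 13, 36819222 to 36829104, plus strand), the RFX-associated protein, was at 18.0, 23.1 and 26 CPM in 0Q and at 20.6, 19.3 and 26.3 CPM in 100Q. The ranges of the 2 groups were nearly the same, with a log2 fold change of 0.00088 ± 0.18 (SE) and an interval from 0.77-fold to 1.31-fold. Adjusted p over the 3 subunits ran from 0.989 to 1.00 (edgeR quasi-likelihood, Benjamini-Hochberg).

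NF-Y binds the Y box as a trimer, in which NFYB and NFYC pair through histone folds and NFYA then joins and reads CCAAT. NFYA (ENSG00000001167; chromosome 6, 41072974 to 41102403, plus strand) was at 55.3, 69.3 and 59.2 CPM in 0Q and at 58.5, 56.2 and 51.4 CPM in 100Q. The highest library was 0Q replicate 2. The log2 fold change was -0.15 ± 0.12 (SE), from 0.76-fold to 1.07-fold, and -0.054 without 0Q replicate 2. NFYB (ENSG00000120837; chromosome 12, 104117086 to 104138241, minus strand) was at 24.1, 20.9 and 28.7 CPM in 0Q and at 25, 22.6 and 28.6 CPM in 100Q. All 3 supplemented libraries lay within the range of the depleted ones. Its log2 fold change was 0.064 ± 0.17 (SE), from 0.82-fold to 1.33-fold, and it was -0.044 without 0Q replicate 2 and -0.040 without 100Q replicate 3.

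NFYC (ENSG00000066136; chromosome 1, 40691648 to 40771603, plus strand) had the smallest p of the 9. It was at 52.2, 45 and 46.5 CPM in 0Q and at 35.2, 38.7 and 47.7 CPM in 100Q. Supplemented replicates 1 and 2 stood below all depleted libraries, whereas replicate 3, the deepest library, lay within their range. The fold change on the log2 scale was -0.22 ± 0.14 (SE; edgeR quasi-likelihood, unadjusted p = 0.12, Benjamini-Hochberg adjusted p = 0.987), with an interval from 0.70-fold to 1.05-fold. Without 100Q replicate 3 it was -0.38 (edgeR quasi-likelihood, unadjusted p = 0.0212, Benjamini-Hochberg adjusted p = 0.765), and without 100Q replicate 1 it was -0.13. The processed pseudogenes NFYAP1, NFYBP1, NFYCP1 and NFYCP2 had 0 counts in every library.

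CREB1 (ENSG00000118260; chromosome 2, 207529737 to 207605988, plus strand), the factor of the X2 box and an effector of cyclic AMP signalling, was at 32.4, 41.4 and 48.5 CPM in 0Q and at 42.9, 39.9 and 45.7 CPM in 100Q. All supplemented libraries lay within the range of the depleted ones, which was set by 0Q replicates 1 and 3. On the log2 scale the fold change was 0.080 ± 0.15 (SE; edgeR quasi-likelihood, Benjamini-Hochberg adjusted p = 0.991), from 0.85-fold to 1.31-fold. It was -0.061 without 0Q replicate 1 and 0.22 without 0Q replicate 3. CREB1 overlaps METTL21A on the opposite strand (16.1 CPM), NFYA overlaps OARD1 (14.5 CPM), and the ends of RFXANK overlap BORCS8 (19.1 CPM) and NR2C2AP (17.7 CPM), so part of these counts is uncertain too.

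**Figure D2:**
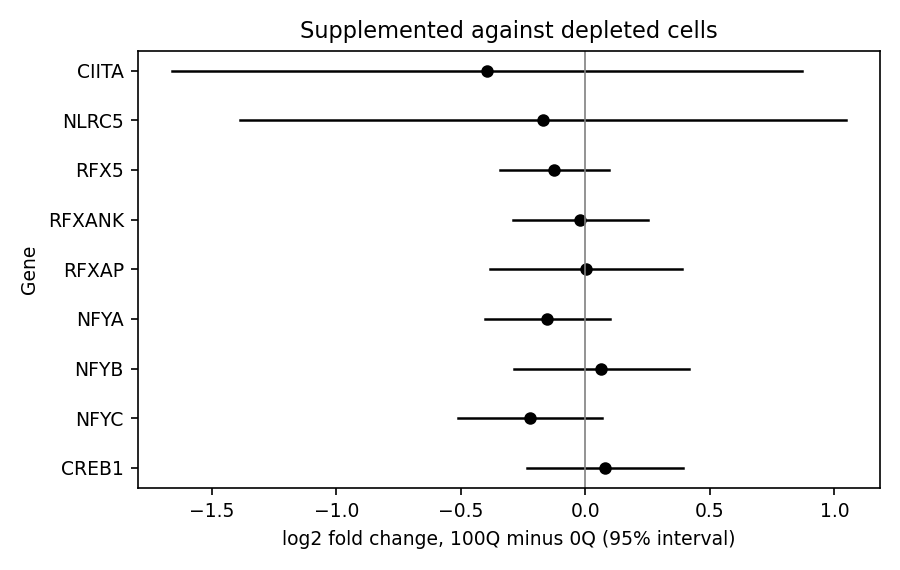
Log2 fold change of each factor gene, 100Q minus 0Q, as a point with its 95% interval from the edgeR quasi-likelihood fit of all genes. The intervals of the 7 genes of RFX, NF-Y and CREB1 lie within a 1.5-fold change in either direction. Those of CIITA and NLRC5 pass a 2-fold change in at least 1 direction.

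For 7 of the 9 genes, the subunits of RFX and NF-Y and CREB1, the 95% interval thus lay within a 1.5-fold change in either direction. The makeup of the 2 complexes was also given as the share of each subunit in the summed level per length of its complex. RFX5 made up 43.7% to 46.5% of the RFX sum in 0Q libraries and 41.1% to 44.6% in 100Q. RFXANK made up 31.5% to 38.2% and 33.6% to 37.3%, and RFXAP 18.1% to 22.1% and 18.9% to 23.5%. RFXAP was therefore the least abundant RFX transcript in every library. In NF-Y the least abundant transcript was NFYB in every library, with 18.6% to 25.3% in 0Q and 22.9% to 26.4% in 100Q. NFYA made up 39.5% to 48.7% and 37.5% to 46.2%, and NFYC 32.8% to 38.7% and 28.8% to 36.1%. The ranges of the groups overlapped for all 6 subunits. With MANE Select lengths NFYC made up 51.8% to 62.6% of the NF-Y sum over the libraries, the most of the 3, and NFYB (20.3%) no longer lay below NFYA (20.2%) in 100Q replicate 3.

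**Figure D3:**
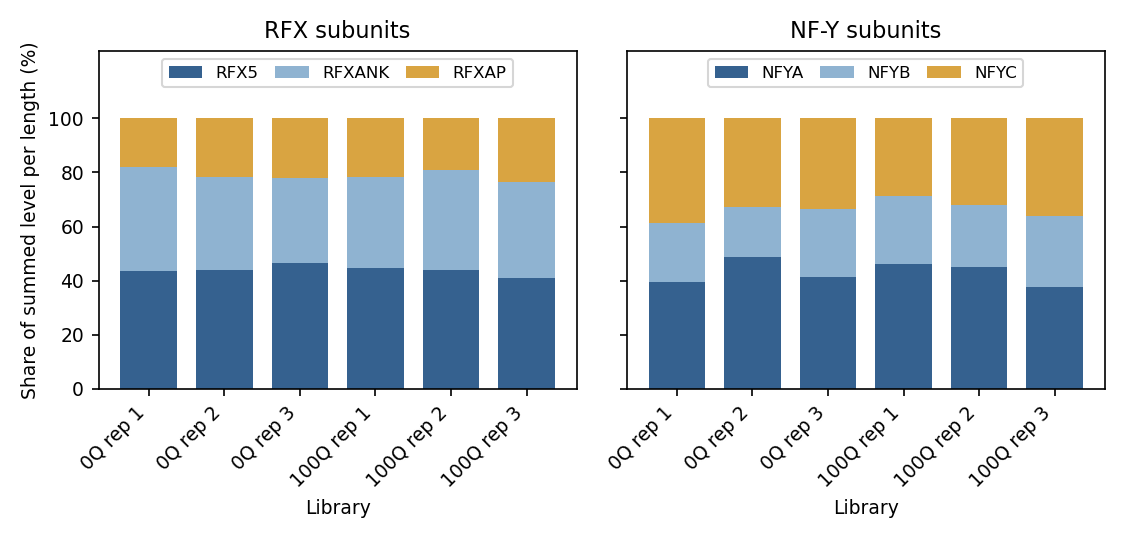
Share (%) of each subunit in the summed level per kilobase of exon of its complex, in each of the 6 libraries. RFXAP and NFYB hold the smallest share of their complex in every library at this length, and the ranges of the groups overlap for all 6 subunits.

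The class II genes under this platform gave few counts. Of the 12 listed, 6 were tested and 0 called, with 0 at an unadjusted p under 0.05, 4 fold changes above 0 and a median of 0.12. Their summed level was 44.4 to 49.0 CPM in 0Q and 46.4 to 56.5 CPM in 100Q. Per kilobase of the union of exons, HLA-DQB1 led with 3.38 CPM, beside 3.45 for CREB1, followed by HLA-DOA with 2.09 and HLA-DPA1 with 1.75. The alpha chain HLA-DRA had 0.23 and the invariant chain CD74, which guards the peptide groove, had 0.037, from 11 and 8 counts in all. This order and the standing of HLA-DQB1 beside CREB1 depend on the length used. HLA-DQB1 had 4894 bases of exon but 1605 in its MANE Select transcript, and HLA-DMB 4613 and 1348. For CREB1 these lengths were 12132 and 10095. Levels of the class II genes with MANE Select lengths are not given here. HLA genes share sequence among paralogs and alleles, so the split of their counts is uncertain.

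The class I genes, which are read by NLRC5 through the same platform, stood higher. Of the 10 listed, 8 were tested and 0 called, with 0 at an unadjusted p under 0.05, 6 fold changes above 0 and a median of 0.028. Their summed level was 691 to 802 CPM in 0Q and 693 to 834 CPM in 100Q. HLA-C had 285 ± 26 CPM without queuine and 260 ± 34.9 CPM with it (SD, n = 3 libraries per group). HLA-B had 167 ± 26.4 and 172 ± 27.3 CPM, and B2M, the light chain of class I, 132 ± 4.69 and 134 ± 4.78 CPM. The immunoproteasome subunits PSMB8 and PSMB9 had too few counts to test, with 9 and 13 over all libraries. TAPBP, the peptide-loading factor tapasin, had a log2 fold change of 0.16 ± 0.14 (SE).

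**Figure D4:**
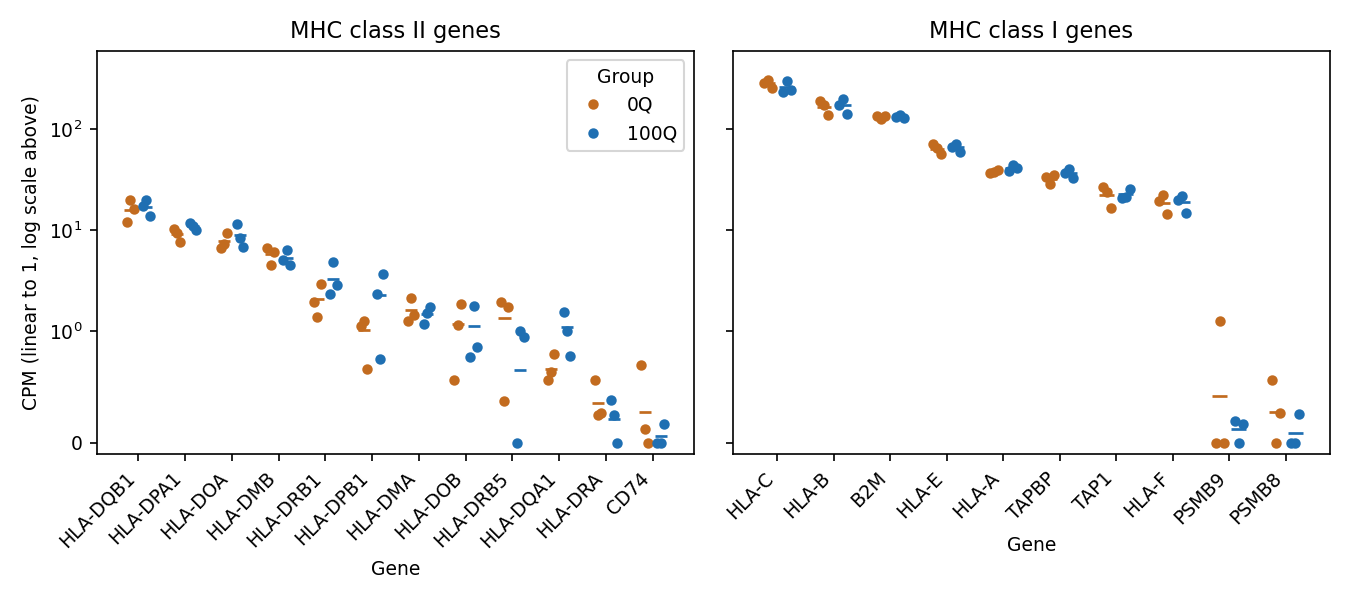
CPM of 12 class II genes (left) and 10 class I genes (right) in each library, with the scale linear to 1 CPM and logarithmic above, 1 point per library and a line at the mean of each group. CPM is not divided by length, so heights compare libraries within a gene; the groups overlap for each gene shown.

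The inputs that reach the CIITA gene were next. Interferon gamma signals through IFNGR1, IFNGR2, JAK1 and JAK2 to IRF1, which acts with USF1 at an inducible CIITA promoter, whereas SPI1 and PAX5 serve promoters used in myeloid and B cells and PRDM1 represses CIITA. Of 11 genes 8 were tested, 5 with fold changes below 0 and a median of -0.17. Of these, 0 were called and 2 had an unadjusted p under 0.05, both lower (2.23% of all genes). IRF1 was at 8.26 ± 3.17 CPM (SD, n = 3 libraries per group, here and for the CPM in the paragraphs that follow) without queuine and 4.07 ± 1.60 CPM with it, with a log2 fold change of -0.97 ± 0.40 (SE), and its groups did not overlap, with 100Q lower as in 5.2% of all genes. JAK1 (0.026 ± 0.086) and the receptor chain IFNGR2 (-0.13 ± 0.11) were present in all libraries. PAX5, SPI1 and PRDM1 had too few counts to test.

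Chromatin cofactors recruited by CIITA were abundant, and all 11 listed genes were tested. Their median log2 fold change was -0.042, with 7 below 0. Of the 11, 0 were called and 2 had an unadjusted p under 0.05, both lower (2.23% of all genes). The remodelling ATPase SMARCA4 was at 348 ± 11.5 CPM without queuine and 318 ± 22.1 CPM with it, and the deacetylase HDAC1 at 295 ± 7.73 and 285 ± 12.6 CPM. HDAC2 had a log2 fold change of -0.17 ± 0.077 (SE) with groups that did not overlap (100Q lower, as in 5.2% of all genes), and the acetyltransferase KAT2B had -0.43 ± 0.17. The CREB coactivators CREBBP and EP300 had -0.13 ± 0.096 and -0.0054 ± 0.11, and CRTC2 had 0.13 ± 0.14. The list of CREB1 relatives and coactivators had 7 tested genes, 4 below 0, a median of -0.0054, 0 called and 0 at an unadjusted p under 0.05.

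Relatives of the factors were described next. Among other RFX genes, RFX7 (37.8 CPM), RFX1 (22.9 CPM) and RFX2 (16.9 CPM) were the most expressed, RFX4 and RFX8 had 0 counts, and 4 of 7 were tested, 3 above 0 with a median of 0.17. RFX2 had 0.39 ± 0.22 (SE). Among other NLR genes, the mitochondrial protein NLRX1 (30.1 CPM), NAIP (12.2 CPM) and the cytosolic sensor NOD1 (10.9 CPM) led, NLRP2 and NLRP3 had 0 counts, and 4 of 9 were tested, 3 above 0 with a median of 0.097. Per length NLRX1 had 5.68 CPM per kilobase, NOD1 1.59 and NAIP 1.22, above their relatives NLRC5 (0.18) and CIITA (0.072). The remaining NLR genes with counts were as low as these 2: NLRC3 had 0.15, NOD2 0.080, NLRC4 0.071 and NLRP1 0.064. Neither list had a call or an unadjusted p under 0.05 with edgeR.

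Genes known to be bound by NF-Y or CREB1 outside the MHC were described as well. Of 10 CCAAT genes of the cell cycle and stress, 10 were tested, 8 were below 0, and the median was -0.073. Of these, 0 were called, 1 had an unadjusted p under 0.05 (4.72% of all genes), and 2 had groups that did not overlap, both lower in 100Q (5.2% of all genes). The chaperone HSPA5 had -0.032 ± 0.079 (SE), the topoisomerase TOP2A -0.17 ± 0.077, the cyclin CCNB1 -0.14 ± 0.085 and the stress factor DDIT3 -0.53 ± 0.28. Of 13 CREB1 targets, 11 were tested, 6 above 0, with a median of 0.11, 0 called and 1 at an unadjusted p under 0.05 (4.72% of all genes). That gene was PER1, a clock repressor, at 50.8 ± 2.50 CPM without queuine and 60.0 ± 4.54 CPM with it (0.25 ± 0.11), with groups that did not overlap, as in 10.6% of all genes (5.39% with 100Q higher). The early response genes JUNB and NR4A1 had -0.28 ± 0.20 and -0.088 ± 0.17.

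Patterns over the libraries were compared by the root mean square difference of log2(CPM + 0.5), each gene centred on its own mean, over 6 libraries and 12110 genes with at least 5 CPM. CIITA was nearest to KHK (0.059 on the log2 scale) and NLRC5 to MIER2 (0.071). Among the other nearest genes were TGFB1 for RFXANK, PNPLA3 for RFXAP, PDS5B for NFYA, MOSPD3 for NFYB, FAM83D for NFYC and KLHL8 for CREB1, at 0.022 to 0.037. No factor was nearest to another factor, which with 12110 genes and 6 libraries says little about the factors. CIITA and NLRC5, below 5 CPM, could not be returned as nearest genes and were not compared with each other. Of the factor pairs compared, the closest was RFXAP and CREB1, at 0.10.

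The factors differ in how they use the codons that the queuosine tRNAs read. These are the 2 codons each for tyrosine, histidine, asparagine and aspartate, ending in C or T in the DNA. In the longest coding sequence of each gene (GENCODE release 44), RFXANK had 33 of 40 such codons ending in C (82.5%), RFXAP 18 of 25 (72%), CIITA 84 of 117 (71.8%) and NLRC5 149 of 213 (70%). The other 5 factors lay below the median of 55.6% over 12672 tested genes with a coding sequence. CREB1 had 47.1%, RFX5 46.7%, NFYC 44.4%, NFYA 34.8% and NFYB 32.4%. The 2 transactivators were thus alike in this share, and the subunits of RFX were not. For aspartate, RFXANK had 16 codons ending in C and 3 in T, whereas RFX5 had 13 and 11. These codons made up 16.3 of 100 codons in NFYB but 6.63 in NFYA, against a median of 13.7.

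**Figure D5:**
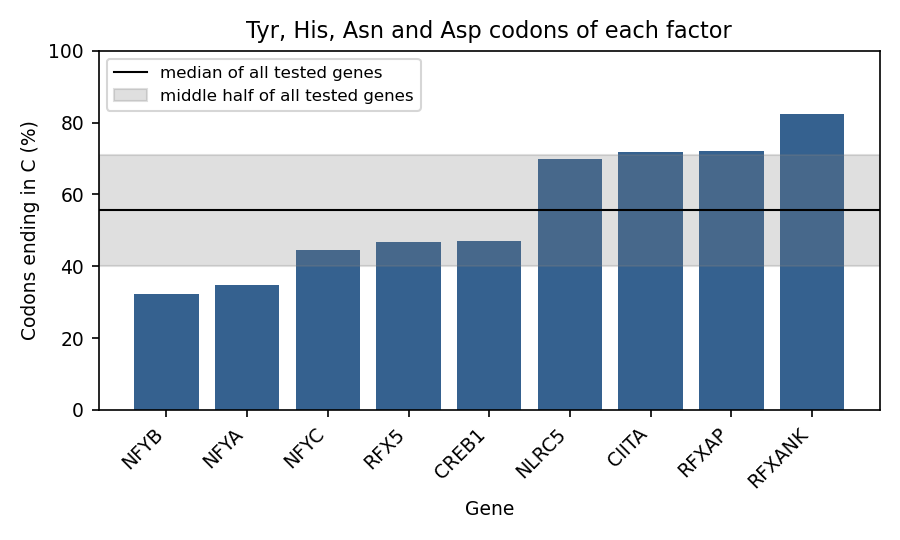
Share (%) of tyrosine, histidine, asparagine and aspartate codons that end in C in each factor gene, with the median (line) and the interquartile range (grey band, 40.2% to 71.0%) of 12672 tested genes. RFXANK (82.5%), RFXAP (72%) and CIITA (71.8%) stand above the band, NFYA and NFYB below it.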

How the data were processed

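Estimated counts per Ensembl gene were deposited by the authors, unnormalized. FastQC, STAR and RSEM are named, without versions, in the submitters' processing notes, which list hg38, mm39 and GRCm39; the series design gives hg38. The sources used here do not give the annotation, strand setting or molecular identifiers. Counts were rounded, and edgeR 4.0.16 (R 4.3.3) ran its quasi-likelihood test (TMM, default filter with a minimum count of 10, no covariate), with Benjamini-Hochberg adjustment over 14905 genes. Of 63086 identifiers, 62541 matched GENCODE release 44. Intervals cover 95%. Alternatives were RLE, library size only, no filter or a mean count of 50, the replicate block, DESeq2 1.42.0, limma-voom (limma 3.58.1), leaving out each library, and other lengths. The test was tested on simulated data. No library was a copy of another: within a group, pairs gave a chi-square of 5.36 to 14.2 for each degree of freedom.

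The members and the gene lists were chosen with earlier results of these data known. Named were all members, up to 3 tested genes of each list with the highest mean CPM, up to 2 with the smallest p, any called, and the gene nearest in pattern to each member; genes given at low or 0 counts, as overlapping, as the called genes of the whole table, or with printed promoters are outside this rule. Some genes that the rule takes are not reported here.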

Additional observations from a re-analysis of the deposited data

How the results depend on the processing

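No factor gene was called in any of the 115 fits of a factor under an alternative, and adjusted p stayed at or above 0.765. The sign held in all alternatives for 4 of the 9 (CIITA, RFX5, NFYA and NFYC) and turned in 11 fits of the other 5, to values from -0.16 to 0.066. RFXAP was -0.0070 with no filter, -0.013 with the replicate block and -0.0029 with DESeq2. Over the fits that left out 1 library, RFXAP ran from -0.16 to 0.12, RFXANK from -0.092 to 0.066, NFYB from -0.044 to 0.19, CREB1 from -0.061 to 0.22 and NLRC5 from -0.47 to 0.054. Over all genes, 2 were called in the reported fit, 71 with no filter, 1 with a mean count of at least 50, 11 with DESeq2, 1 with limma-voom, and 0 to 6 when 1 library was left out; the cause was not tested. CIITA and NLRC5 were not in the fit with a mean count of at least 50.

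The replicate number as a block called 3 genes and 0 factors. Deviations of same-numbered libraries from their group means had correlations of 0.0014, -0.020 and 0.081, beside -0.086 to 0.069 for differently numbered ones. With 3 libraries per group, these values cannot show whether the numbers pair the samples, and the labels do not say. With under 100 counts over all libraries, depth limits CIITA and NLRC5.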
